A study of Homo sapiens with 4 samples.

Results

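The collagen genes are the protein-coding genes named COL, a type number, A and a chain number in the annotation of the deposited counts. There were 44 of them among 58735 genes. They were read in 4 RNA-seq libraries whose cells are labelled MKN-45, a line established from a human gastric cancer. All 4 came from cells infected with a lentivirus, selected with puromycin and grown in DMEM with fetal bovine serum. In 2 libraries the virus was the control (genotype control), and in 2 it was meant to raise SIX2, a homeobox transcription factor (genotype SIX2 overexpression). Each group has a library titled 1 and a library titled 2. What the number stands for beyond a repeat is not given in the labels, nor whether infected cells were a pool or a clone, nor whether repeats were separate cultures. The p-values therefore reflect how far these libraries spread, which may be technical.

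Collagens are extracellular proteins built of 3 chains wound into a triple helix. Chains are hydroxylated, joined and folded in the endoplasmic reticulum, and the secreted proteins are trimmed and cross-linked outside the cell. Fibrillar collagens form the rope-like fibrils of stroma, type IV collagens form the sheet under every epithelium, and others decorate fibrils, anchor the epithelium or span its membrane. In the stomach wall most fibrillar collagen comes from fibroblasts, while epithelial cells make part of the basement membrane.

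The 44 genes comprised 11 fibrillar chains, 6 basement membrane chains of type IV, 10 fibril-associated chains (FACIT), 5 beaded filament chains of type VI, 4 transmembrane chains, 3 short-chain network chains, 2 multiplexins, 2 other chains and the anchoring fibril chain COL7A1. A minimum of 10 counts, adjusted for library total (0.615 counts per 1000000 before TMM scaling), in at least 2 libraries was needed for testing. Levels are given below as CPM, counts per 1000000 of the scaled library size. Of the 44, 26 passed it and 18 did not. Of the 26, 21 reached the minimum in all 4 libraries. COL11A1, COL17A1 and COL3A1 passed through the libraries numbered 1 and COL6A2 through those numbered 2, so these genes had to be high on that side. COL26A1 passed through 1 library of each number.

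The 6 type IV genes lie as 3 head-to-head pairs, each pair reading outward from a shared stretch of DNA. The stretches are shown because the chains of a pair can be compared from a common start. RefSeq (GRCh38.p14) has 126 bases between the starts of COL4A1 and COL4A2, 418 between those of COL4A4 and COL4A3, and 379 between those of COL4A6 and COL4A5. For COL4A6 the start nearer COL4A5 was used, and another is listed further away (chrX:108438422). In the annotation of the counts, by contrast, the spans of COL4A1 and COL4A2 overlap by 1422 bases on opposite strands. How reads from that overlap were assigned is not known, and its part in their counts was not tested. The COL4A1 stretch is whole (chr13:110307158-110307283). The other two are the 250 bases next to the COL4A3 start (chr2:227164374-227164623) and next to the COL4A5 start (chrX:108439588-108439837). All are plus strand, and capitals mark GC boxes (GGGCGG) and CCAAT boxes, on either strand.
COL4A1 and COL4A2: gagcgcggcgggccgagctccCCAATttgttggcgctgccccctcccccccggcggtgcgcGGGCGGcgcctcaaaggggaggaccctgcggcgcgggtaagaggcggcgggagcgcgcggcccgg
COL4A4 and COL4A3: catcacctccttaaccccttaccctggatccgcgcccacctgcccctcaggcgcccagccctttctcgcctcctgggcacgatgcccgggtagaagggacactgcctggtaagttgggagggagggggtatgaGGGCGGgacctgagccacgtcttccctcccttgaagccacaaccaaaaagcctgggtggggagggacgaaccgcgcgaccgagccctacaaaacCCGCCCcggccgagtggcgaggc
COL4A6 and COL4A5: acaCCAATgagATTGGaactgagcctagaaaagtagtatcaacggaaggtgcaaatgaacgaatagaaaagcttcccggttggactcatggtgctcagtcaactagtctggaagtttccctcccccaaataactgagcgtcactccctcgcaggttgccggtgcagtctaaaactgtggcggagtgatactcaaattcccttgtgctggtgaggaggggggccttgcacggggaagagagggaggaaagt
The COL4A1 stretch held 1 GC box and 1 CCAAT box, the COL4A3 stretch 2 GC boxes and 0 CCAAT boxes, and the COL4A5 stretch 0 GC boxes and 2 CCAAT boxes. A TATA box (TATAAA) matched in 0 of the 3. Of 35097 RefSeq promoter windows of 300 bases, 44.9% held GGGCGG, 34.6% held CCAAT and 11.5% held TATAAA. The 32 collagen genes with an entry had 44 windows, of which 24 held GGGCGG, 14 held CCAAT and 8 held TATAAA. These are matches of letters on both strands, each motif counted separately, with no statement about a factor.

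The libraries held 14792869 to 16777792 counts, with 24396 to 25472 genes detected and 6.19% to 7.03% of counts from mitochondrially encoded genes. SIX2 showed no clear rise under its own label, with 24.6 CPM (369 counts) in the control and 23.003 (379) in the SIX2-labelled library numbered 1, and 35.7 (597) and 38.3 (605) in those numbered 2 (log2 0.02, SE 0.37, adjusted p = 1.00 by edgeR). The libraries stood apart by number. Pearson's r of log2 CPM over 16343 genes was 0.996 and 0.992 within a number and 0.944 to 0.945 between numbers. The same-numbered libraries were not copies, since their counts differed beyond sampling noise (chi-square per gene 4.39 and 14.7). Of the markers of the labelled epithelial cell type, KRT8, KRT18, CLDN4, CDH1 and EPCAM were detected, KRT19 had 0 to 2 counts and ESRP1 had 0 in every library. KRT8 was at 1721 CPM (mean of the libraries numbered 1) and 3134 (numbered 2), and CDH1 at 21.2 and 6.69. The summed level of 12 fibroblast and smooth muscle markers was 79.5 to 90.0 CPM in number 1 and 15.5 to 18.1 in number 2. LUM and DCN made most of the first. Others on the list went the other way, with PDGFRB at 1.63 and 6.61 CPM (adjusted p = 0.000752), ACTA2 at 1.24 and 2.11 and RGS5 at 0.607 and 1.09, the last pair not called. PDGFRA and DPT had 0 counts in every library, and THY1, POSTN and TCF21 had 1 or fewer. Endothelial markers summed to 8.75 to 13.6 CPM, mostly CDH5, with KDR at 0. Blood cell markers summed to 0.359 to 1.08 CPM, with PTPRC and CD3E at 0. In bulk samples fewer cells of a type and less RNA per cell cannot be told apart, and the part of these markers in the collagen results was not tested.

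Collagen genes took 0.387% of all counts in the control library numbered 1, 0.371% in the SIX2-labelled library numbered 1, 0.517% in the control numbered 2 and 0.495% in the SIX2-labelled library numbered 2. The exact binomial 95% interval, which covers counting error only, was 0.368% to 0.374% for the lowest share and 0.513% to 0.520% for the highest. The libraries numbered 2 stood above those numbered 1, and within each number the SIX2-labelled library was the lower. COL7A1, the chain of the anchoring fibrils that tie the basement membrane to the stroma, made 37.6% and 37.1% of the collagen counts in number 1 and 24.7% and 24.6% in number 2 (control, then SIX2-labelled). Fibrillar chains made 28.3% and 28.5% in number 1 and 34.4% and 35.5% in number 2. Type IV chains made 24.2%, 24.2%, 24.1% and 25.2% in that order. FACIT chains made 6.66% and 7.08% in number 1 and 13.98% and 11.7% in number 2, and COL12A1 alone made 4.54%, 5.07%, 12.6% and 10.2%.

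**Figure D1:**
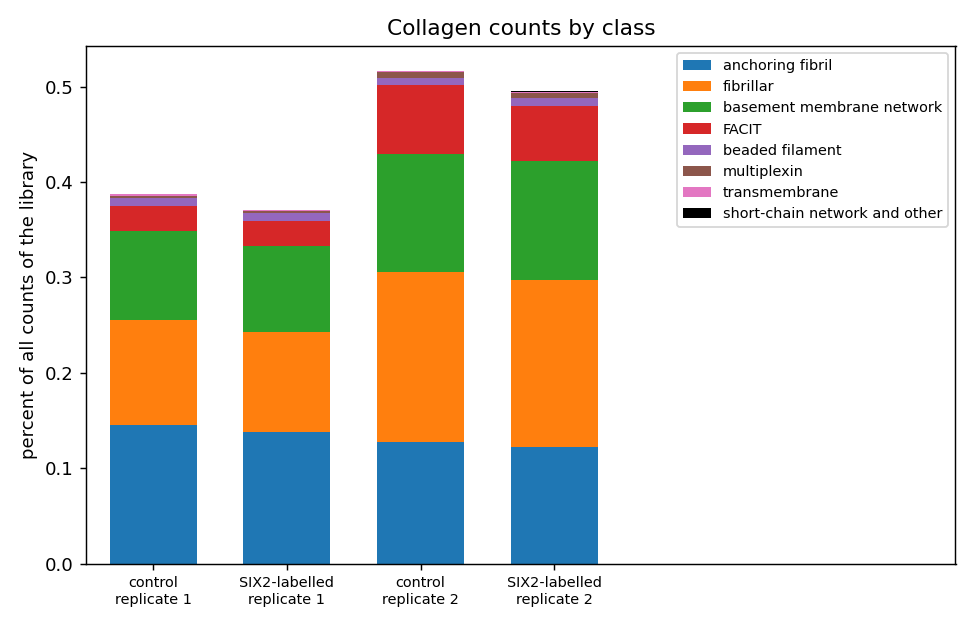
Stacked bars give the percent of all counts of a library taken by each collagen class (y axis), with 1 bar per library. The whole bars reach 0.387%, 0.371%, 0.517% and 0.495% from left to right, and the fibrillar, basement membrane and FACIT parts are taller in the libraries numbered 2.

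Levels of different genes are comparable only per length. In CPM per kilobase of merged exons, COL7A1 and COL5A1 were the highest collagen genes of both numbers. COL7A1 was at 127 ± 4.36 (SD, n = 2) in number 1 and 114 ± 2.29 in number 2. COL5A1, the main chain of type V collagen, which sits in the core of stromal fibrils, was at 85.7 ± 2.28 and 131 ± 0.948. The order of the pair thus turned between numbers. COL4A2 came next in number 1 (27.01 ± 1.98). In number 2, COL12A1 came next (46.9 ± 7.82), then COL4A2 (31.0 ± 1.36) and COL1A1 (28.2 ± 0.365). That order rests on the length used. Per kilobase of the principal transcript, an alternative chosen after seeing the data, COL4A2 was at 92.0 and COL12A1 at 49.9 in number 2, while COL7A1 and COL5A1 remained the highest in both numbers.

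**Figure D2:**
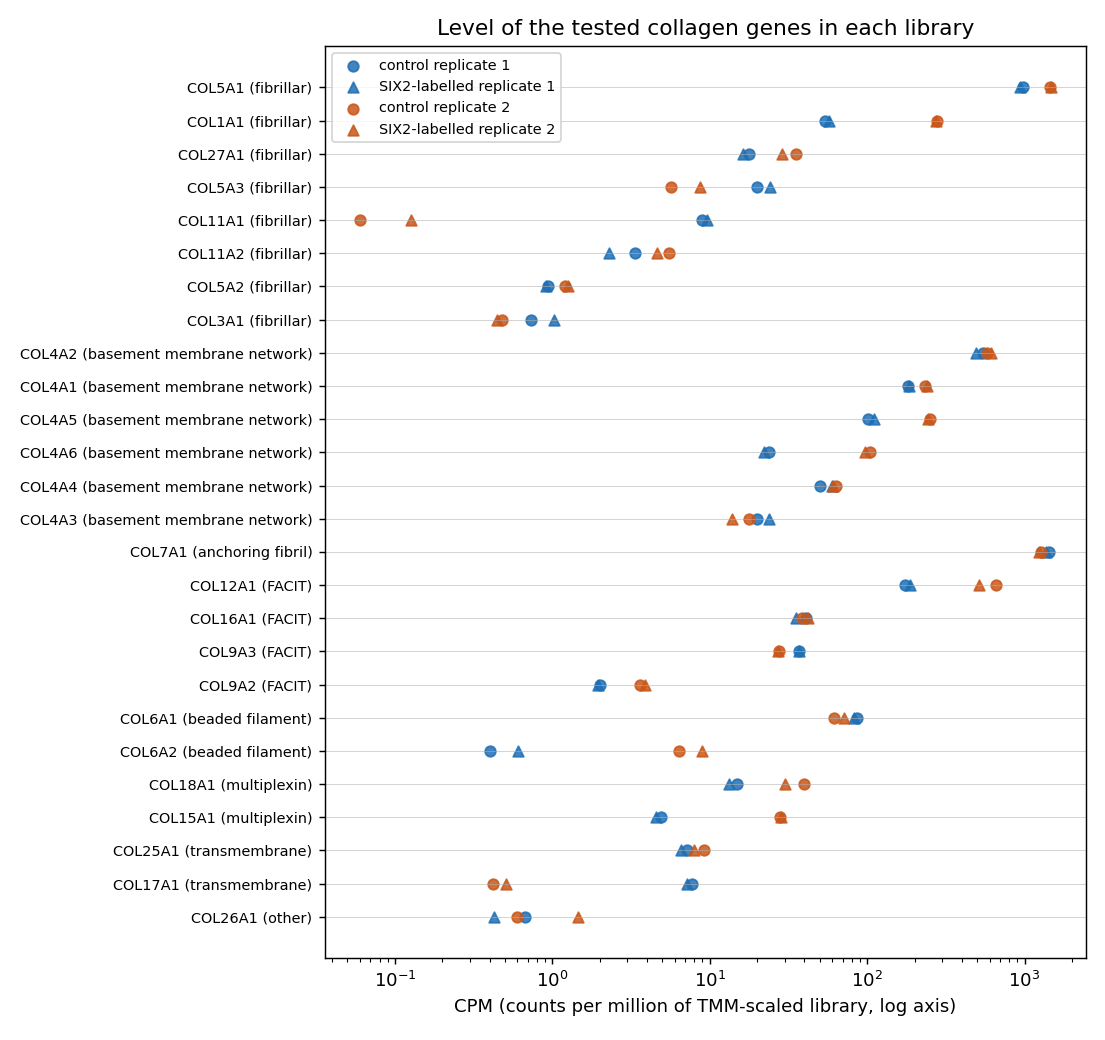
Points give the CPM of each of the 26 tested collagen genes in each library on a log axis, with genes grouped by class, circles for controls, triangles for SIX2-labelled libraries and a colour for each number. Circles and triangles of one colour lie close together for most genes, while colours separate by up to the gap of COL11A1, at 8.95 and 9.65 against 0.0598 and 0.127 CPM.

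The first comparison set the libraries numbered 2 against those numbered 1, each side with 1 control and 1 SIX2-labelled library. By edgeR's quasi-likelihood test with Benjamini-Hochberg adjustment over 16343 genes, 18 of the 26 tested collagen genes passed an adjusted p of 0.05, where 43.8% of all genes did. In number 2, 12 were higher (22.2% of all genes were called higher) and 6 were lower (21.6% of all genes). The median log2 change was 0.39 for the collagen genes and 0.01 for all genes, with a range of -6.54 to 3.90. A change of at least 2-fold was called for 10 collagen genes, 7 higher and 3 lower, and for 16.3% of all genes. Since 4 of the 26 passed the count minimum through 1 number, among them 3 of the 18 called (COL11A1 and COL6A2, which set the ends of the range, and COL17A1), these counts describe the genes tested, not all 44.

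**Figure D3:**
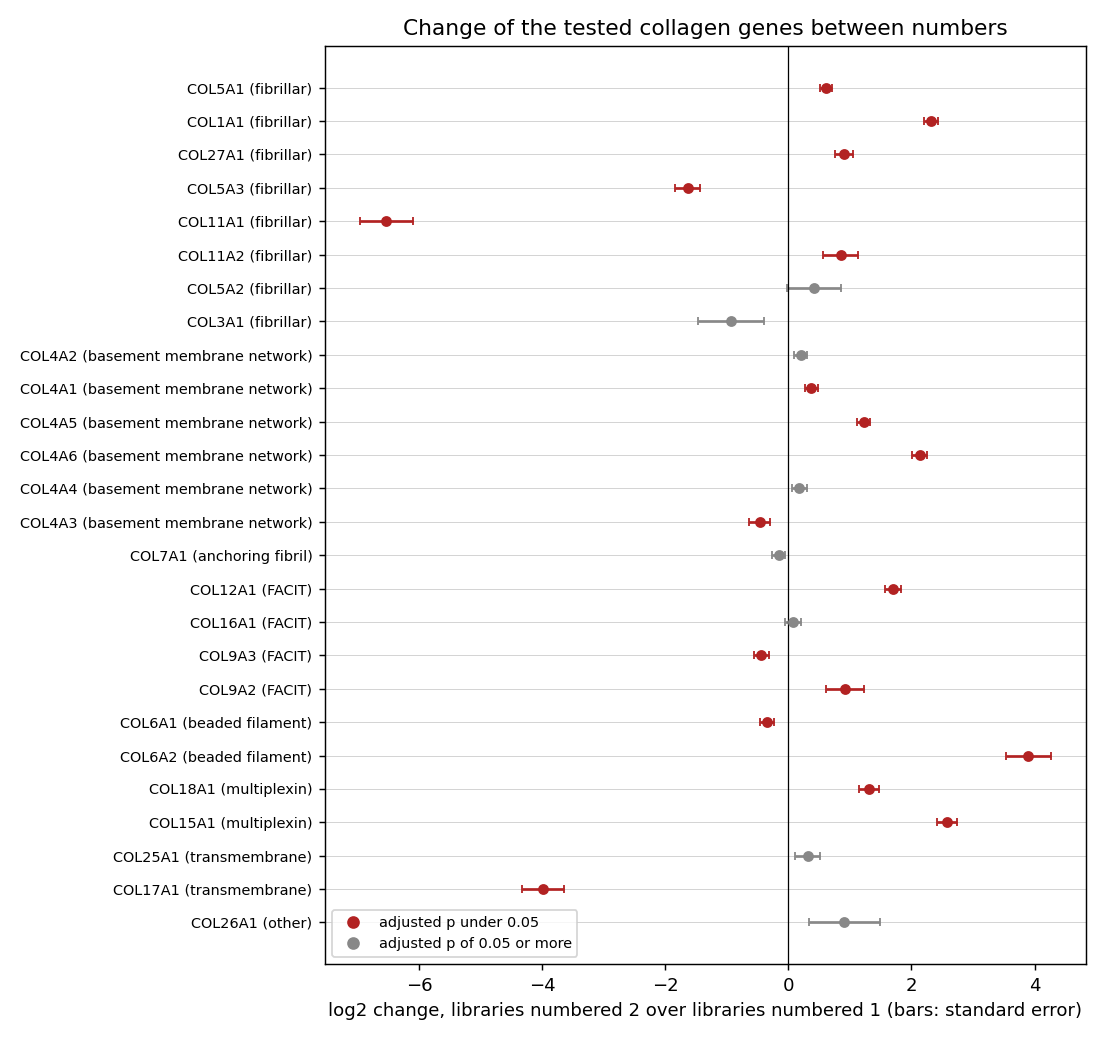
Points give the log2 change of each tested collagen gene in the libraries numbered 2 over those numbered 1 (x axis), with bars of 1 standard error, in red where the adjusted p is under 0.05. The span runs from COL11A1 at -6.54 to COL6A2 at 3.90, and 18 genes are red.

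Fibrillar chains went both ways: of 8 tested, 4 were higher in number 2, 2 were lower and 2 were not called. Beside them, 22.2% of all genes were called higher and 21.6% lower. COL11A1, counted among the lower, passed the count minimum through number 1. COL5A1 (ENSG00000130635, chromosome 9, 134641774 to 134844843, plus strand, GRCh38) had 977 CPM in the control and 941 in the SIX2-labelled library numbered 1, and 1456 and 1471 in those numbered 2. Both libraries numbered 2 lay above both numbered 1 (1464 ± 10.6 and 959 ± 25.5 CPM). The log2 difference was 0.61 (SE 0.10, adjusted p = 0.000423). COL1A1 (ENSG00000108821, chromosome 17, 50183289 to 50201632, minus strand), the main chain of type I collagen, had 54.1 and 56.9 CPM in number 1 and 280 and 274 in number 2. It was 4.99-fold higher in number 2 (log2 2.32, SE 0.11, adjusted p = 5.31e-09), with no overlap. COL27A1, a fibrillar chain of cartilage, had 17.8 and 16.2 CPM against 35.2 and 28.7 (log2 0.91, SE 0.15, adjusted p = 0.000261).

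COL11A1 (ENSG00000060718, chromosome 1, 102876467 to 103108872, minus strand) was close to absent from number 2. This chain of type XI collagen, which limits the width of fibrils in cartilage, had 134 and 159 counts in number 1 and 1 and 2 in number 2. The ratio of summed counts, scaled to library size, was 101 with a 95% counting interval of 34.2 to 492. The gene was tested because it was high in number 1, so its p is not given. COL5A3, a minor type V chain, had 20.1 and 24.3 CPM in number 1 and 5.68 and 8.62 in number 2, a log2 change of -1.64 (SE 0.20, adjusted p = 2.97e-05). COL11A2, the partner chain in type XI, went the other way, with 3.34 and 2.31 CPM against 5.50 and 4.63 (log2 0.85, SE 0.29, adjusted p = 0.0289). Its call was lost without SIX2 replicate 1 (adjusted p = 0.269) and with DESeq2 (adjusted p = 0.133).

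The fibrillar chains COL3A1 and COL5A2, abundant in stroma, were near the count minimum and not called. COL3A1 had 11 and 17 counts in number 1 and 8 and 7 in number 2. Its p is not given, since it passed the count minimum through number 1. COL5A2 had 14 and 15 against 20 and 20 (adjusted p = 0.472). The 3 untested fibrillar chains were COL1A2, with 1, 0, 0 and 0 counts (control 1, SIX2-labelled 1, control 2, SIX2-labelled 2), COL2A1, the chain of cartilage collagen, with 1, 2, 1 and 0, and COL24A1 with 1, 0, 6 and 9.

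In the basement membrane class all 6 chains were tested, and in number 2, 3 were higher, 1 was lower and 2 were not called. The shares over all genes were 22.2% higher and 21.6% lower. COL4A1 (ENSG00000187498, chromosome 13, 110148963 to 110307233, minus strand), one of the chains of the type IV network found in nearly all basement membranes, had 181 and 184 CPM in number 1 and 233 and 240 in number 2. The libraries numbered 2 were the higher without overlap (183 ± 2.22 and 237 ± 5.16), at a log2 change of 0.37 (SE 0.10, adjusted p = 0.0102). The call was lost without control replicate 1 (adjusted p = 0.189) or SIX2 replicate 1 (0.156). COL4A2, its partner in that network (chromosome 13, 110305812 to 110513209, plus strand), had 548 and 494 CPM against 579 and 616, a log2 change of 0.20 (SE 0.11) that was not called (adjusted p = 0.163). Without control replicate 2 it was called (log2 0.26, adjusted p = 0.00655).

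COL4A5 and COL4A6, neighbours on chromosome X whose chains assemble together in smooth muscle and some epithelial basement membranes, both stood higher in number 2. COL4A5 (108439844 to 108697545, plus strand) had 101 and 111 CPM in number 1 and 252 and 243 in number 2 (log2 1.23, SE 0.11, adjusted p = 1.44e-06). COL4A6 (108155607 to 108439497, minus strand) had 23.8 and 22.2 against 104 and 97.6 (log2 2.13, SE 0.12, adjusted p = 1.97e-08). COL4A3 and COL4A4, whose chains join with that of COL4A5 in the kidney filter, did not follow them. COL4A3 had 20.04 and 23.8 CPM in number 1 and 17.8 and 13.8 in number 2 (log2 -0.47, SE 0.17, adjusted p = 0.0348). Its call was lost without SIX2 replicate 1 (adjusted p = 0.271), without SIX2 replicate 2 (0.0983) and with DESeq2 (0.114). COL4A4 had 50.4 and 59.7 against 63.5 and 61.1 and was not called (log2 0.18, SE 0.12, adjusted p = 0.249).

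COL7A1 (ENSG00000114270, chromosome 3, 48564073 to 48595267, minus strand) had 1440 and 1371 CPM in number 1 and 1279 and 1243 in number 2. Its libraries did not overlap between numbers, but the log2 change of -0.16 (SE 0.11) was not called (adjusted p = 0.251).

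Of the FACIT chains, which lie on the surface of fibrils, 4 of 10 were tested. COL12A1 had 174 and 187 CPM in number 1 and 654 and 516 in number 2, and was 3.24-fold higher in number 2 (log2 1.70, SE 0.13, adjusted p = 3.67e-07). COL9A2 had 2.004 and 1.94 CPM against 3.59 and 3.87 (log2 0.92, SE 0.31, adjusted p = 0.0268). The partner chain COL9A3 was lower, with 37.1 and 36.8 CPM in number 1 and 27.4 and 27.1 in number 2 (log2 -0.44, SE 0.12, adjusted p = 0.00988). The COL9A2 call was lost without control replicate 1 (adjusted p = 0.125), without SIX2 replicate 1 (0.151) and with DESeq2 (0.156), and the COL9A3 call without control replicate 1 (0.0875) or SIX2 replicate 1 (0.0774). COL16A1 had 41.1, 35.2, 38.6 and 41.8 CPM and overlapped between numbers (adjusted p = 0.658). The 6 untested FACIT chains had 0 to 8 counts in a library, with COL9A1 and COL19A1 at 0 in all.

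Of the 5 chains of type VI collagen, which forms beaded filaments around cells, 2 were tested. COL6A1 (chromosome 21, 45981737 to 46005050, plus strand) had 86.7 and 82.1 CPM in number 1 and 61.3 and 70.8 in number 2 (log2 -0.35, SE 0.11, adjusted p = 0.0233). That call was lost without control replicate 1 (adjusted p = 0.210), control replicate 2 (0.0572) or SIX2 replicate 1 (0.101), and with DESeq2 (0.0547). COL6A2 (chromosome 21, 46098097 to 46132849, plus strand) had 6 and 10 counts in number 1 and 107 and 142 in number 2, at 0.401, 0.607, 6.399 and 9.001 CPM. The fitted difference was 14.9-fold (log2 3.90, SE 0.37), given without its p since the gene was tested because it was high in number 2. COL6A3, the largest chain of the type, had 1 count in SIX2 replicate 1 and 0 elsewhere. COL6A6 had 1, 5, 9 and 6 counts, and COL6A5 had 0 in every library.

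Both multiplexins, whose C-terminal fragments include endostatin and which sit in basement membranes, were higher in number 2. COL15A1 had 4.88 and 4.55 CPM against 27.99 and 28.5 (log2 2.58, SE 0.17, adjusted p = 8e-08). COL18A1 had 14.96 and 13.4 against 39.8 and 30.1 (log2 1.31, SE 0.16, adjusted p = 2.84e-05). COL18A1 overlaps SLC19A1 on the opposite strand by 20149 bases, and SLC19A1 had 608 and 623 counts in number 1 and 656 and 419 in number 2. The overlap is of whole gene spans, introns included, and the overlap of exons was not measured. Since the strand setting is not stated in the sources used here, how reads from shared bases were assigned is not known. Of the 44 collagen genes, 25 overlapped the span of another annotated gene.

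Of the transmembrane chains, COL17A1, which anchors epithelial cells at hemidesmosomes, was lower in number 2. It had 116 and 118 counts in number 1 and 7 and 8 in number 2, at 7.75, 7.16, 0.419 and 0.507 CPM, a fitted 15.9-fold difference (log2 -3.99, SE 0.34). Its p is not given, since it passed the count minimum through number 1. COL25A1, a chain best known from brain, had 7.15, 6.62, 9.15 and 7.92 CPM and was not called (adjusted p = 0.234). COL13A1 had 0 and 0 counts in number 1 and 6 and 4 in number 2. With number 1 set to a floor of 3 counts in all, the ratio was 3.23. The floor leaves out counting error, and the exact counting interval of the observed counts began at 2.17. COL23A1 had 0 and 0 against 2 and 4, a ratio of 1.94 with the same floor and an interval from 1.14. Neither gene was tested.

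The short-chain network collagens were all below the minimum. COL10A1, a chain of growth plate cartilage, had 11, 8, 1 and 6 counts, COL8A1 1, 0, 3 and 6, and COL8A2 3, 0, 10 and 4. COL26A1 had 10, 7, 10 and 23 counts and was tested but not called (adjusted p = 0.228), and COL28A1 had 0, 2, 3 and 0. Across the 18 untested genes no library had more than 11 counts, and no gene had more than 26 counts over the 4 libraries.

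Chains that assemble into one collagen were then set side by side as ratios of counts per kilobase, described by their values and not tested. COL4A2 per COL4A1 stayed near 2.05 ± 0.182 (SD, n = 4), with 2.31 and 2.05 in number 1 and 1.90 and 1.96 in number 2. COL4A4 per COL4A3 was 2.28 and 2.27 in number 1 and 3.22 and 4.004 in number 2. COL4A6 per COL4A5 was 0.302 and 0.256 in number 1 and 0.529 and 0.514 in number 2. Of the head-to-head pairs shown above, the ratio moved least between numbers for COL4A1 and COL4A2 (2.18 ± 0.186 and 1.93 ± 0.0425) and more for the other pairs. For COL4A1 and COL4A2 the libraries numbered 1 lay further from each other than the nearest libraries of the numbers did. The log2 changes of the partners differed by -0.17 for COL4A2 less COL4A1, 0.65 for COL4A4 less COL4A3 and 0.91 for COL4A6 less COL4A5. The difference between changes was not tested.

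Other partners were far apart in level. For type V, 77691 counts of COL5A1 stood against 69 of COL5A2 over the 4 libraries, a ratio of 1126 with a 95% counting interval of 890 to 1447, and the ratio per kilobase of COL5A2 to COL5A1 was 0.00144, 0.00145, 0.00123 and 0.00129. For type I, 10752 counts of COL1A1 stood against 1 of COL1A2, with a counting interval of 1929 to 424720. For type VI, 4792 counts of COL6A1 stood against 1 of COL6A3 (860 to 189313). In tissue these partners are made together, COL1A2 being part of the usual type I trimer and COL6A3 part of the usual type VI trimer.

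Several ratios differed between the numbers. COL6A2 per COL6A1 was 0.00459 and 0.00734 in number 1 and 0.104 and 0.126 in number 2. COL5A3 per COL5A1 was 0.0341 and 0.0429 against 0.00647 and 0.00971, and COL9A3 per COL9A2 was 16.1 and 16.5 against 6.65 and 6.10. COL11A2 per COL11A1 was 0.503 and 0.322 in number 1 and 124 and 49.2 in number 2, resting on 1 and 2 counts of COL11A1. The COL6A2 ratio rests on 6 and 10 counts in number 1. COL6A2 passed the count minimum through number 2 and COL11A1 through number 1, so a shift of these ratios is partly built in.

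**Figure D4:**
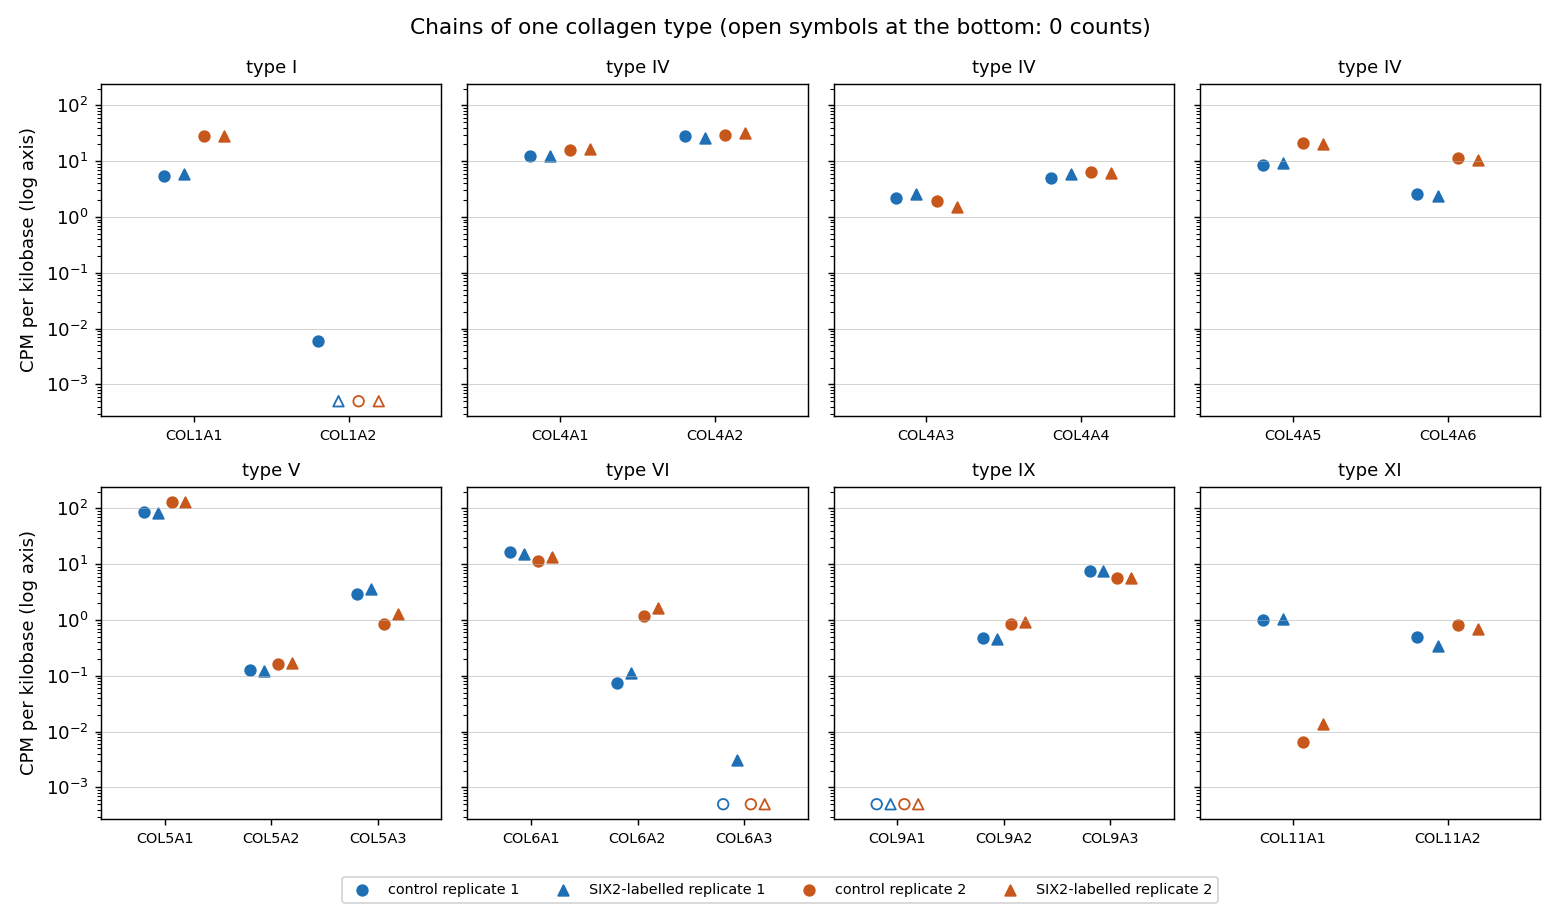
Each panel gives the level of chains of one collagen type in CPM per kilobase on a log axis, in each library, with open symbols at the bottom for 0 counts. COL4A1 and COL4A2 keep their distance in every library, COL11A1 falls below COL11A2 in the libraries numbered 2, and COL1A2 and COL6A3 lie at or near 0 counts beside COL1A1 and COL6A1.

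Genes that build, bind and cut collagens were read in the same comparison of numbers. Of 37 biosynthesis genes, 33 were tested, 4 were higher in number 2 and 11 lower, with a median log2 change of -0.11 against 0.01 for all genes. Of all genes 22.2% were called higher and 21.6% lower, 43.8% together. The 15 calls together are near that background, but those higher fall short of their share and those lower exceed it. The split by direction was not tested. P3H2, a prolyl 3-hydroxylase, had 76.5 ± 0.367 CPM in number 1 and 10.8 ± 1.79 in number 2 (log2 -2.83, adjusted p = 7.72e-09). P3H3 of the same family had 26.1 ± 4.41 and 8.31 ± 0.168 (log2 -1.65, adjusted p = 6.2e-06). SERPINH1, the collagen chaperone HSP47, had 485 ± 32.3 and 266 ± 24.8 (log2 -0.87, adjusted p = 4.83e-05). PCOLCE, the enhancer of C-propeptide removal, had 123 ± 0.203 and 67.1 ± 7.29 (log2 -0.88, adjusted p = 4.33e-05), and PYCR1, an enzyme of proline synthesis, had 75.3 ± 1.21 and 39.3 ± 7.09 (log2 -0.94, adjusted p = 8.33e-05).

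The related enhancer PCOLCE2 went the other way, with 1 and 2 counts in number 1 and 213 and 188 in number 2. Its ratio was 129 with a counting interval of 43.9 to 629.9, without a p since it passed the count minimum through number 2. P4HB, the shared subunit of prolyl 4-hydroxylase, had 424 ± 4.64 and 660 ± 17.7 CPM (log2 0.64, adjusted p = 0.000285). PPIB, a proline isomerase of the folding complex, had 101 ± 0.363 and 166 ± 28.97 (log2 0.72, adjusted p = 0.000475), and the cross-linking enzyme LOX had 8.61 ± 0.671 and 13.5 ± 0.296 (log2 0.65, adjusted p = 0.00808).

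Of 12 receptor genes, 8 were tested, 3 were higher in number 2 and 2 lower, beside 22.2% and 21.6% of all genes, with a median log2 change of 0.34. The lower ones were the collagen-binding integrin chains ITGA1 and ITGA2. Their shared partner ITGB1 was not called (log2 0.08, adjusted p = 0.602), and ITGA10 and ITGA11, with 13 counts or fewer in a library, were not tested. ITGA1 had 266 ± 19.7 CPM in number 1 and 36.1 ± 2.61 in number 2 (log2 -2.88, adjusted p = 1.78e-09), and ITGA2 had 101 ± 9.02 and 26.7 ± 0.337 (log2 -1.92, adjusted p = 5.44e-08). MRC2, a receptor that takes up collagen fragments, had 37.5 ± 1.05 and 152 ± 8.21 (log2 2.02, adjusted p = 2.14e-08). ADGRG1, an adhesion receptor that binds type III collagen, had 60.3 ± 0.703 and 151 ± 1.56 (log2 1.32, adjusted p = 6.43e-07). DDR2, a receptor kinase for fibrillar collagen, had 7.02 ± 0.200 and 17.1 ± 1.31 (log2 1.29, adjusted p = 6e-05).

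Of 10 collagen-cleaving protease genes, 6 were tested, 0 were higher and 4 were lower in number 2, beside 22.2% and 21.6% of all genes. Their median log2 change was -1.48, beside 0.01 for all genes. MMP14, a membrane-bound collagenase, had 53.3 ± 0.311 CPM in number 1 and 5.41 ± 1.14 in number 2 (log2 -3.30, adjusted p = 6.66e-09). MMP9, a gelatinase that cuts type IV collagen, had 45 and 66 counts in number 1 and 9 and 13 in number 2. The ratio of summed counts, scaled to library size, was 5.21 with a counting interval of 3.28 to 8.65. The control numbered 2 was below the count minimum, so MMP9 needed the libraries numbered 1 to be tested. Its p is not given. The cathepsin CTSL had 159 ± 4.97 and 105 ± 16.8 (log2 -0.60, adjusted p = 0.00145). FAP, a serine protease that is also on the fibroblast marker list, had 29 and 40 counts in number 1 and 0 and 1 in number 2, a ratio of 71.3 with a counting interval of 12.4 to 2856. FAP passed the count minimum through number 1, so its p is not given. The places of FAP and MMP9 among the 4 rest on number 1, and both pull the median down. The count and the median therefore describe the 6 genes tested only. The collagenases MMP1 and MMP8 had 0 counts in every library.

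The comparison the labels imply sets SIX2-labelled against control libraries. Since the counts show no clear rise of SIX2 itself, it compares the labels, and does not show what raised SIX2 does. By edgeR's quasi-likelihood test, 0 of the 26 tested collagen genes were called, as were 0% of the 16343 genes. At an unadjusted p under 0.05 there were 0 collagen genes, where 0.0734% of all genes passed. DESeq2 and limma-voom called 0 collagen genes, and 0 had an unadjusted p under 0.05 with either. The median log2 change was -0.01 for the collagen genes and -0.00 for all genes, and 0 collagen genes had ranges that did not overlap between groups, where 5.99% of all genes lay higher and 5.8% lower without overlap. In this test the spread within a label includes the difference between numbers. edgeR's biological coefficient of variation was 45.0% when fitted on label alone and 9.78% when fitted on number alone. With the title number as a block beside the label, 0 collagen genes were called (0.049% of all genes) and 1, COL5A3, had an unadjusted p under 0.05 (3.07% of all genes). None of the 33 biosynthesis, 8 receptor and 6 protease genes tested was called either.

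The 4 collagen genes with the smallest unadjusted p between groups were COL26A1, COL11A2, COL18A1 and COL27A1. COL26A1 had 0.633 ± 0.0493 CPM in controls and 0.941 ± 0.730 in SIX2-labelled libraries (log2 0.57, SE 0.83, adjusted p = 1.00). The log2 changes of the others were -0.35 (SE 0.55) for COL11A2, -0.33 (SE 0.64) for COL18A1 and -0.24 (SE 0.48) for COL27A1. For COL5A1 the groups were at 1217 ± 339 and 1206 ± 375 CPM (log2 -0.01, SE 0.33), and for COL4A1 at 207 ± 36.5 and 212 ± 39.4 (log2 0.04, SE 0.26). Standard errors of this size do not allow a small change to be told from none.

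Within a number there is 1 library per label and no replicate check. The SIX2-labelled library was the higher for 10 of the 26 genes in number 1 and for 13 in number 2. In both numbers it was the higher for 4 genes, the lower for 7, and on opposite sides for 15. The 4 were COL4A1, COL5A3, COL6A2 and COL11A1. The same counts were not made over all genes, so they have no background beside them and describe these 26 only. COL5A3 was 1.21 times the control in number 1 (95% counting interval 1.04 to 1.41) and 1.52 times in number 2 (1.16 to 1.99). COL7A1 was 0.953 times (0.935 to 0.971) and 0.972 times (0.953 to 0.991) the control, and COL4A1 1.02 times (0.966 to 1.07) and 1.03 times (0.986 to 1.08). COL5A1 was 0.963 times (0.942 to 0.985) in number 1 and 1.01 times (0.992 to 1.03) in number 2.

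**Figure D5:**
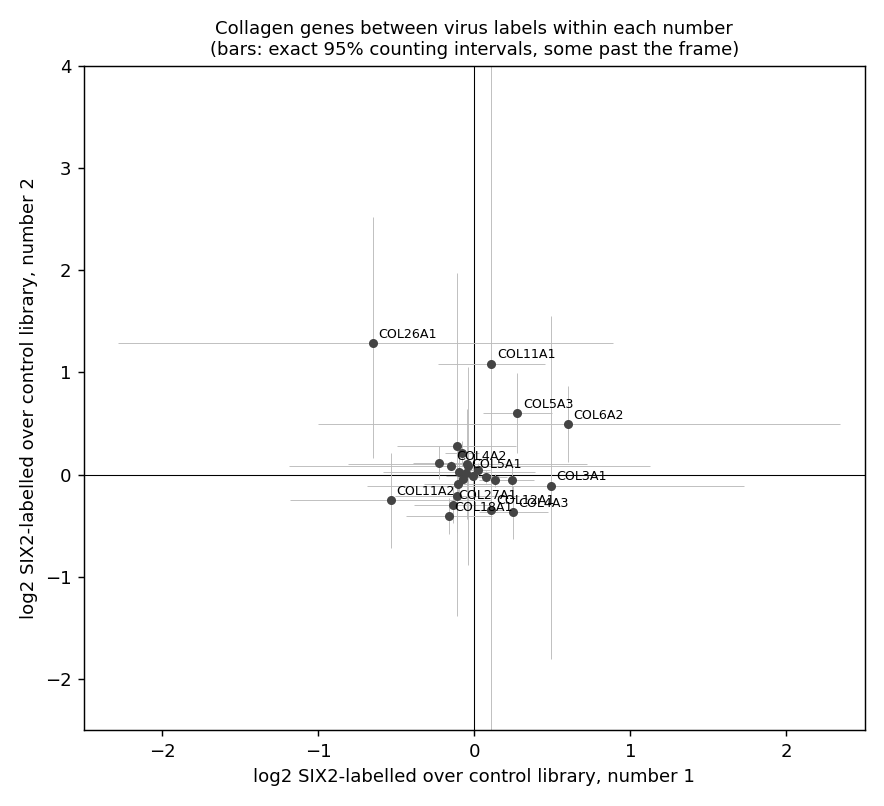
Each point is a tested collagen gene, with the log2 ratio of the SIX2-labelled to the control library of number 1 on the x axis and of number 2 on the y axis, and bars for exact 95% counting intervals, some of which leave the frame. The points lie around 0 on both axes, with 4 genes above 0 on both and 7 below 0 on both. The same count was not made over all genes.

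The label ratio moved with gene length over all genes, in opposite directions in the numbers: Spearman's rho across 16343 genes, which are not independent replicates, was 0.15 in number 1 and -0.24 in number 2. The median log2 ratio of the collagen genes was -0.05 in number 1 and -0.00 in number 2. In 10741 other genes at least as long as the shortest tested collagen gene it was 0.02 and -0.04. Between numbers rho with length was 0.03, and the median log2 change of those other genes was 0.01 beside 0.39 for the collagen genes. The other genes, of 3156 bases or more, were most of those tested and were not matched to the collagen genes in length. The part of length in the collagen changes was not tested.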

How the data were processed

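For 4 libraries, 2 per virus label, Trizol RNA was made into TruSeq libraries and read on an Illumina instrument, per the labels' protocols. The deposited files hold raw whole-number counts for each gene, per the file headers. Neither aligner nor counter is named in the sources used here, and the strand setting is not stated. The submitters' processing notes name the build mm9, but all 58735 gene identifiers are human and in GENCODE release 29 (GRCh38), 58724 with the same coordinates and strand. Design text and treatment protocol differ on the number of repeats, and 4 libraries were analysed here.

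Counts were tested in R 4.3.3 with edgeR 4.0.16: filterByExpr (minimum count 10), TMM scaling, the quasi-likelihood test and Benjamini-Hochberg adjustment over 16343 genes, with a threshold of 0.05. CPM are counts per 1000000 of scaled library size, and means ± SD have n = 2 unless stated. Count ratios carry exact 95% intervals for counting error only. Standard errors come from the F statistic. Alternatives used other scalings, filters, DESeq2 1.42.0, limma-voom 3.58.1, a term for label or number, and left out each library. Named are COL5A1, COL4A1, each collagen gene called between numbers and its chain partners, up to 5 listed genes per direction with the smallest adjusted p, and the 4 collagen genes with the smallest p between labels. The members, lists and tests were chosen with earlier results of these data known. Promoter sequences are from RefSeq (GRCh38.p14).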

Additional observations from a re-analysis of the deposited data

Results flagged for a closer look

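For 3 collagen genes the SIX2-labelled library lay on opposite sides of the control in the 2 numbers, with a 95% counting interval that left out a ratio of 1 in each. The ratio for COL12A1 was 1.08 (1.02 to 1.14) in number 1 and 0.789 (0.767 to 0.812) in number 2. For COL4A2 it was 0.902 (0.874 to 0.930) in number 1 and 1.06 (1.03 to 1.09) in number 2. For COL4A3 it was 1.19 (1.02 to 1.38) in number 1 and 0.775 (0.648 to 0.926) in number 2. There is 1 library per label in a number, so the difference between numbers was not tested, and the intervals cover counting error only. Over all genes the same-numbered libraries differed beyond sampling noise (chi-square per gene 4.39 and 14.7). The share of all genes that meet this rule was not computed, so it cannot be called particular to these genes.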

How the results depend on the processing

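Between numbers, 267 of 284 single-gene values of the 26 tested collagen genes kept their side of the threshold, 16 values of 6 genes lost the call and 1 gained it. The sign changed in 1 value, of COL16A1, which was not called. The cause was not tested. The count of 18 called collagen genes was 12 to 18 without 1 library, 14 with DESeq2 and 18 or 19 otherwise. Over all genes it was 4853 to 8416 without 1 library, against 7151. Leaving out a library leaves 1 on its side, assumed to vary like the others. Biosynthesis genes called were 13 to 19, receptors 5 to 6 and proteases 4 to 5 without 1 library.

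Between labels, 0 of the 284 values of the collagen genes were called, and 57 values had another sign than in the test reported. With the title number as a replicate block, 8 genes were called in place of 0, 6 higher and 2 lower, and 501 had an unadjusted p under 0.05. Of the collagen genes 0 were called, and COL5A3 had an unadjusted p of 0.0333 by edgeR. Same-numbered libraries deviated together (r = 0.878), but with 2 numbers per label this is a hint from the data, not the design.

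COL4A2 per COL4A1 (2.05 per kilobase) was 2.69 from raw counts and 2.74 with the length of the principal transcript, an alternative chosen after seeing the data. COL5A2 per COL5A1 (0.00135) was 0.000902 and 0.00108. The collagen share (0.379% in number 1, 0.506% in number 2) was 0.416% and 0.555% of protein-coding counts without mitochondrial genes, and 0.112% and 0.150% per kilobase. Low counts limit COL3A1, COL5A2, COL26A1 and the 18 untested genes.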

Other observations

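Rows named after collagen genes that are not protein-coding were left out of the family. Counts are given for control 1, SIX2-labelled 1, control 2 and SIX2-labelled 2. The pseudogene COL6A4P1 had 63, 63, 38 and 26 counts. The antisense RNA COL5A1-AS1, which overlaps COL5A1 by 3459 bases, had 29, 26, 10 and 15, lower in the libraries numbered 2, in which COL5A1 was higher. COL4A2-AS1 had 7, 3, 4 and 8 counts, COL4A2-AS2 3, 1, 8 and 1, and COL18A1-AS1 0, 2, 5 and 6. Without a known strand setting, how reads from bases shared with the overlapping genes were assigned is not known. The overlap of exons was not measured.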
